A study of Mus musculus with 26 samples.

Results

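Histone genes were followed in mouse cells with both T-cell coreceptors, CD4 and CD8, on their surface, taken from 3 tissues. Such double positive (DP) cells are an intermediate stage of T-cell development. Members were the rows whose gene symbol begins with Hist, a digit and h, or with H2af or H3f, which gave 68 of the 13765 genes in the deposited table. Of these, 60 were replication-type genes (Hist symbols, 1 of them a pseudogene by its symbol) and 8 were replacement genes (H2af and H3f symbols). A filter on low values, at least 100 normalised read counts in at least 4 of 12 columns, was passed by 22 replication-type and 7 replacement genes, and 9106 genes of the table passed it in all. A gene can pass through a tissue where it is high, so the 29 tested genes stand for themselves and not for all 68.

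The groups were DP cells of aortic arch, of mediastinal adipose tissue and of thymus, all from female C57BL/6J mice at 8 weeks of age, with no treatment named. Tissue of 5 mice was joined into each pool, and each tissue had 4 pools, which were the replicates. Viable CD4+CD8b+TCR- cells were sorted in lots of 400, and each library was made from 200 of them after 18 cycles of cDNA amplification of polyadenylated RNA. Arch and adipose tissue were enzymatically digested before the sort, and no digestion is named for thymus, so digestion and site outside the thymus cannot be told apart.

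Replication-type histone genes are the intronless, clustered genes that supply H1, H2A, H2B, H3 and H4 while DNA is copied. Their mRNAs normally end just after a conserved stem-loop instead of in a poly(A) tail, and they are destroyed when DNA synthesis stops. Replacement histones, such as H3.3 and H2A.Z, are made in and outside S phase from polyadenylated mRNAs, mostly with introns, and enter chromatin without replication. Libraries of polyadenylated RNA select against mRNAs that end at the stem-loop, so the values here do not measure the bulk of replication-type histone mRNA.

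The stem-loop was still present in the annotated transcripts of genes that gave many reads here, which is why 4 of these sites are shown. Each line is 30 bases of the transcript after the stop codon, from GENCODE vM21 on GRCm38, with the stem-loop in capitals. The first 3 genes are replication-type, and H2afx is the replacement gene that carries such a stem-loop.
Hist3h2a: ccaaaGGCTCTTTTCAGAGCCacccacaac
Hist3h2ba: ccaaaGGCTCTTTTCAGAGCCaccttccaa
Hist1h2ae: acaaaGGCTCTTTTCAGAGCCattcactta
H2afx: acaaaGGCCCTTTTAAGGGCCaccacctcc
The stem-loop of Hist3h2a began 42 bases after the stop codon, its annotated transcript continued for 1643 bases beyond it, and an AATAAA signal lay in the last 40 bases. The Hist3h2ba transcript ran 169 bases past its stem-loop, that of Hist1h2ae 151 bases and that of H2afx 822 bases. The last 40 bases also held AATAAA in Hist3h2ba and Hist1h2ae, and ATTAAA in H2afx. A stem-loop was found in the longest coding transcript of 17 of the 22 tested replication-type genes, and 9 of the 17 were annotated for more than 200 bases past it. Among the 38 replication-type genes below the filter, 37 had a coding transcript, 23 of these had a stem-loop and 9 ran more than 200 bases past it. The search covered only annotated bases after the stop codon. These were 0 for several genes without a match, such as Hist1h1b, Hist1h2ak and Hist1h3i, and a shorter transcript of Hist1h2bp had a stem-loop. A missing match therefore does not show that a gene lacks the stem-loop. The annotation's transcript ends were not measured in these libraries, and the annotation behind the deposited table is not given in the sources used here.

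Recovered reads per pool ranged from 11577253 to 26551456 in arch, from 14279190 to 33540294 in adipose tissue and from 13473516 to 34599519 in thymus. Summed levels of 12 DP markers (Cd4, Cd8a, Cd8b1, Rag1, Rag2 and others, all in the table) were 7291 to 8675 CPM (read counts scaled to a common library total) in arch, 6415 to 11490 CPM in adipose tissue and 19630 to 22550 CPM in thymus, with no marker at 0 throughout a tissue. Fibroblast, macrophage, smooth muscle or B cell markers stood out in 3 pools. The 9 fibroblast markers summed to 125.3 to 6008 CPM in arch (6008 in pool 4), 59.1 to 388.8 CPM in adipose tissue, where Pdgfra was at 0, and 88.9 to 298.4 CPM in thymus, where Lum, Pdgfra, Mgp and Col6a1 were at 0. Of 8 macrophage and monocyte markers, the 7 in the table summed to 0 to 905 CPM in arch (905 in pool 2), 0 to 246.4 CPM in adipose tissue and 0 to 13.6 CPM in thymus, where Csf1r, C1qa, C1qb and Mrc1 were at 0. The 5 smooth muscle markers summed to 0.560 to 1850 CPM in arch (1850 in pool 2), at most 7.54 CPM in adipose tissue and at most 3.31 CPM in thymus, with Myh11, Cnn1 and Myl9 at 0 in both. A set of 5 B cell markers summed to 2.80 to 363.2 CPM in arch, with Ms4a1 at 0, 27.4 to 1461 CPM in adipose tissue (1461 in pool 1) and 71.0 to 213.7 CPM in thymus, with Cd79a, Ms4a1 and H2-Aa at 0. Of 5 dendritic cell markers, the 4 in the table summed to 1462 to 2084 CPM in arch, 1222 to 2288 CPM in adipose tissue and 2001 to 3525 CPM in thymus. Xcr1 was at 0 in arch and Itgax in thymus. Over all pools, 3 of 5 endothelial markers summed to 27.66 to 156.8 CPM, and 3 of 6 natural killer and innate lymphoid markers to 25.26 to 168.7 CPM. The 1 adipocyte marker in the table was at 14.46 CPM or less. The main results below are given with and without arch pools 2 and 4 and adipose pool 1.

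Histone reads were a larger part of the libraries outside the thymus, and Hist3h2a and H3f3b made up most of the difference. The 68 genes together took 1.24% to 1.40% of all reads in arch pools, 1.00% to 1.49% in adipose pools and 0.713% to 0.941% in thymus pools. The 60 replication-type genes took 0.2265% to 0.2513% of reads in arch, 0.103% to 0.2272% in adipose tissue and 0.0490% to 0.0726% in thymus, with no overlap between either outside tissue and thymus. Their summed normalised read count was 51435 ± 3501 in arch, 33851 ± 11420 in adipose pools and 11662 ± 1927 in thymus (SD, n = 4 pools each). With Hist3h2a left out, the other 59 summed to 16058 ± 3902 in arch, 10158 ± 5623 in adipose pools and 7369.7 ± 1537 in thymus, and then the adipose pools, at 4999.7 to 17764, overlapped the thymus pools, at 5923.7 to 9397.7. The 8 replacement genes summed to 236060 ± 15410 in arch, 219130 ± 40200 in adipose pools and 150120 ± 16510 in thymus. No test was run on these sums. In bulk libraries, fewer cells of a type and less RNA per cell cannot be told apart.

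**Figure D1:**
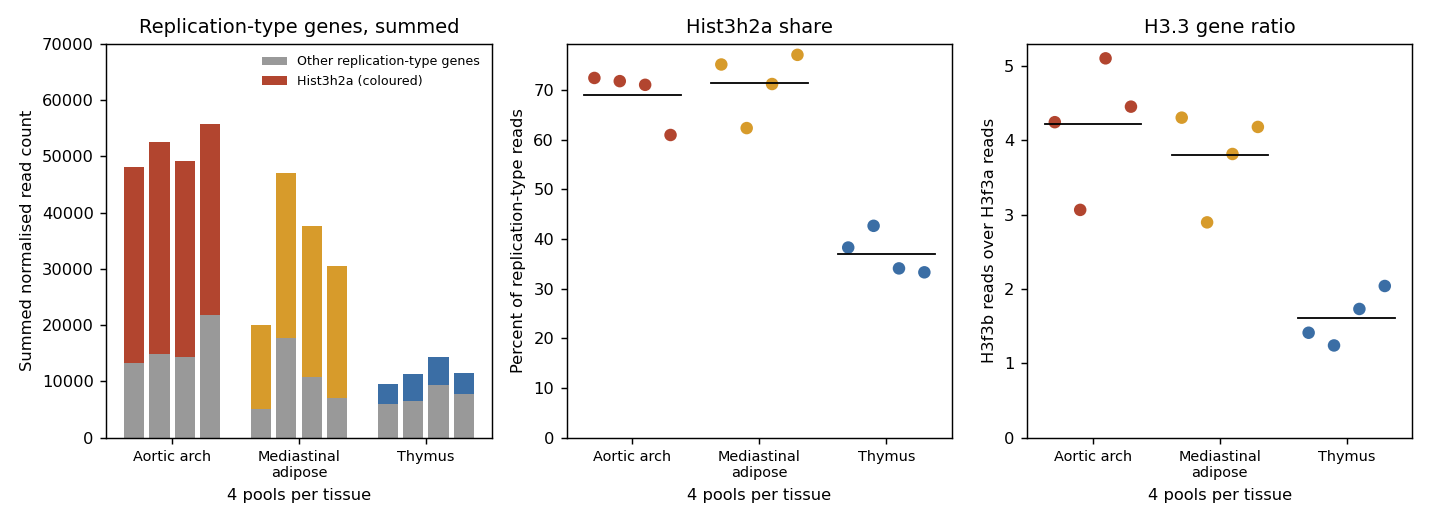
Left, summed normalised read count of the 60 replication-type genes in each pool, with Hist3h2a coloured and the other 59 in grey. Middle and right, Hist3h2a as a percentage of replication-type reads and the ratio of H3f3b to H3f3a reads, 1 point per pool with the tissue mean as a line. The Hist3h2a share was 60.9% to 77.0% in all arch and adipose pools and 33.3% to 42.6% in thymus pools.

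Of the 7 tested replication-type H2A genes, Hist3h2a, which encodes a core histone H2A, was the one called higher in arch and in adipose tissue than in thymus. It lies on chromosome 11 at chr11:58954685-58956830 (GRCm38, plus strand), a single exon with 1700 bases after the stop codon. Its normalised read counts were 34840, 37728, 34922 and 34015 in the 4 arch pools, 15081, 29356, 26806 and 23530 in the adipose pools, and 3671, 4816, 4853 and 3828 in the thymus pools. Every arch and adipose pool was above every thymus pool, and the lowest of them, adipose pool 1, was still more than 3 times the highest thymus pool. The means were 35376 ± 1620 in arch, 23693 ± 6217 in adipose pools and 4291.9 ± 630 in thymus (SD, n = 4 pools each). Errors of means are SDs over 4 pools throughout, and errors of log2 changes are SEs. Fold changes here are differences of log2(normalised read count + 20), tested with limma and adjusted over all 9106 genes by the Benjamini-Hochberg method, and calls are at an adjusted p under 0.05. Hist3h2a was higher by 3.05 ± 0.20 on the log2 scale in arch than in thymus (SE, adjusted p = 3.389e-08) and by 2.43 ± 0.20 in adipose tissue than in thymus (adjusted p = 7.33e-07). Both comparisons share the thymus pools. Without arch pools 2 and 4 and adipose pool 1, the log2 changes were 3.03 (adjusted p = 2.422e-06) and 2.63 (adjusted p = 1.907e-06).

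Within the replication-type genes, Hist3h2a took 69.0% ± 5.43 of reads in arch, 71.4% ± 6.54 in adipose pools and 37.1% ± 4.32 in thymus (SD, n = 4 pools each). Per kilobase of annotated exon, its level was 16480 normalised read counts in arch, 11040 in adipose pools and 2000 in thymus. On that scale it ranked 3 of the 29 tested histone genes in arch, 4 in adipose pools and 7 in thymus. In arch it stood between the H2A.Z genes H2afz, at 22260 per kilobase, and H2afv, at 12090 per kilobase. The gene shares its annotated start with a transcript of Trim17 on the same strand, and 31.5% of its 50-base windows occur in transcripts of other genes, mainly Trim17 and the overlapping Gm44313. Trim17 itself averaged 95.5 ± 110.5 normalised read counts in arch, 21.7 ± 31.5 in adipose pools and 9.39 ± 10.4 in thymus, under 1% of the Hist3h2a level in each tissue.

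The other 6 tested H2A genes did not pass the test in either comparison with thymus. Hist1h2ae, which was second to Hist3h2a among the tested replication-type genes per kilobase in arch (3681) and above it in thymus (2871), had 2553, 1172, 1920 and 4720 normalised read counts in arch pools, 532, 2164, 1803 and 1049 in adipose pools and 1879, 1804, 2600 and 1802 in thymus pools. The 3 tissues overlapped for this gene, and its log2 changes were 0.19 ± 0.49 in arch and -0.70 ± 0.49 in adipose tissue against thymus (SE, adjusted p = 0.8539 and 0.6233 by limma). Hist1h2ac averaged 131.1 ± 86.0 in arch, 43.8 ± 59.03 in adipose pools and 3.43 ± 5.06 in thymus. All its arch pools were above all thymus pools, and its log2 change of 2.53 ± 0.93 was not called (adjusted p = 0.1126), although DESeq2 on recovered reads called it (adjusted p = 0.03005). Hist1h2ag averaged 114.2 ± 46.1 in arch, 125.2 ± 62.7 in adipose pools and 36.1 ± 19.8 in thymus, and Hist1h2ak averaged 246.3 ± 173.7 in arch, 62.9 ± 35.7 in adipose pools and 66.8 ± 114.4 in thymus. Hist1h2ab averaged 228.3 ± 339.9 in arch, 61.2 ± 71.1 in adipose pools and 126.1 ± 100.9 in thymus, and Hist2h2ac averaged 293.5 ± 473.1 in arch, 80.1 ± 93.0 in adipose pools and 57.5 ± 59.4 in thymus. For Hist1h2ab and Hist2h2ac, the SD in arch exceeded the mean because pool 4 was far above the others. From 55.0% to 78.9% of the 50-base windows of Hist1h2ab, Hist1h2ag, Hist1h2ak and Hist2h2ac are shared with other genes, mostly other H2A copies for the Hist1 genes, so the split of reads among them is uncertain.

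**Figure D2:**
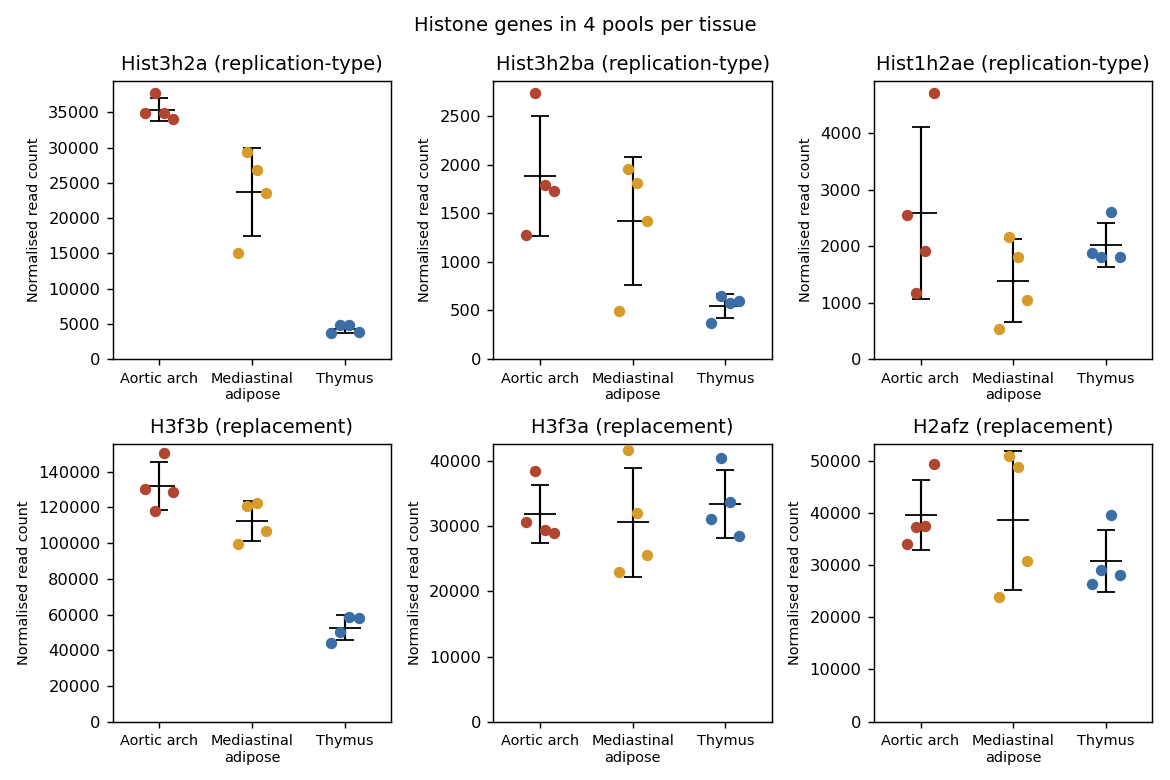
Normalised read counts of 3 replication-type genes (upper row) and 3 replacement genes (lower row), 1 point per pool, with the mean and SD over 4 pools in black. Hist3h2a and H3f3b have all arch and adipose pools above all thymus pools, while Hist1h2ae, H3f3a and H2afz overlap between tissues.

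H2B genes supply the partner of H2A in the nucleosome. Hist3h2ba, which lies 5151 bases before Hist3h2a at chr11:58948920-58949533 on the same strand, had 1274, 2745, 1798 and 1735 normalised read counts in arch pools, 498, 1962, 1816 and 1427 in adipose pools and 368, 648, 574 and 598 in thymus pools. All arch pools were above all thymus pools, and adipose pool 1 fell among the thymus values. The log2 change was 1.73 ± 0.52 in arch and 1.21 ± 0.52 in adipose tissue against thymus (SE), and neither was called (adjusted p = 0.05407 and 0.3275 by limma). For arch, the call depended on the setting: a pseudocount of 100 gave an adjusted p of 0.04706 and DESeq2 0.002383, whereas leaving out arch pools 2 and 4 and adipose pool 1 gave 0.1486. Reads of Hist3h2a exceeded those of Hist3h2ba by a factor of 13.7 to 27.4 in arch pools, 14.8 to 30.3 in adipose pools and 6.40 to 9.98 in thymus pools.

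The other 4 tested H2B genes were not called in either comparison with thymus. Hist1h2bc averaged 812.5 ± 336.3 in arch, 1822.9 ± 1516 in adipose pools and 342.3 ± 83.3 in thymus, and every arch and adipose pool was above every thymus pool. Adipose pool 2, the pool made from 1 library, was at 3978, against 681 to 1784 in the other adipose pools. The log2 change of Hist1h2bc was 1.15 ± 0.65 in arch (adjusted p = 0.3088) and 2.03 ± 0.65 in adipose tissue (adjusted p = 0.1185 by limma, 0.001513 by DESeq2). Hist1h2bg averaged 230.2 ± 144.9 in arch, 129.6 ± 92.6 in adipose pools and 21.3 ± 29.6 in thymus, with log2 changes of 2.605 ± 0.98 and 1.91 ± 0.98 (adjusted p = 0.1175 and 0.4448). Hist1h2bj averaged 197.4 ± 105.9 in arch, 137.9 ± 176.9 in adipose pools and 50.2 ± 23.0 in thymus, and its arch and thymus pools did not overlap. Hist2h2be had the lowest log2 change in arch of the tested replication-type genes and averaged 723.3 ± 677.2 in arch, 1100.3 ± 894.2 in adipose pools and 1097.5 ± 257.7 in thymus (log2 change -1.01 ± 0.71 in arch, adjusted p = 0.4215).

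Of the H3 and H4 genes, which form the core tetramer of the nucleosome, 2 of 12 and 3 of 13 passed the filter, and none was called. Hist1h3a averaged 178.2 ± 116.2 in arch, 43.5 ± 44.7 in adipose pools and 34.5 ± 18.6 in thymus (log2 change in arch 1.69 ± 0.96, adjusted p = 0.312). Hist2h3c1 averaged 255.9 ± 239.9 in arch, 56.5 ± 77.5 in adipose pools and 75.9 ± 151.3 in thymus, and all of its 50-base windows are shared with other annotated genes. Hist1h4c averaged 439.9 ± 226.2 in arch, 138.7 ± 108.1 in adipose pools and 130.5 ± 94.9 in thymus (log2 change in arch 1.69 ± 0.99, adjusted p = 0.326). Hist1h4d, at 901.3 ± 273.2 in arch, 516.9 ± 231.1 in adipose pools and 664.8 ± 159.5 in thymus, and Hist1h4i, at 320.0 ± 194.9 in arch, 180.5 ± 70.2 in adipose pools and 157.0 ± 136.8 in thymus, overlapped between all tissues.

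All 5 linker histone H1 genes passed the filter, and their log2 changes in arch against thymus were 0.66 to 1.75, with none called (smallest adjusted p = 0.297). Linker histones bind the DNA between nucleosomes. Hist1h1c, the H1 gene with the highest mean in each tissue, averaged 1791.6 ± 903.8 in arch, 1474.6 ± 1187 in adipose pools and 866.6 ± 439.3 in thymus. Hist1h1b averaged 1067.3 ± 738.9 in arch, 283.8 ± 175.9 in adipose pools and 322.7 ± 108.6 in thymus, and Hist1h1a averaged 407.5 ± 265.7 in arch, 136.3 ± 104.4 in adipose pools and 95.3 ± 35.7 in thymus. For both, the 4 arch pools lay above the 4 thymus pools. Hist1h1d averaged 282.3 ± 173.8 in arch, 82.6 ± 64.2 in adipose pools and 142.3 ± 136.9 in thymus, and Hist1h1e averaged 285.3 ± 266.6 in arch, 75.5 ± 56.4 in adipose pools and 95.1 ± 42.9 in thymus, with arch pool 4 at 0 for Hist1h1e. The transcript of Hist1h1e overlaps that of Hist1h2be on the same strand, and reads in the overlap cannot be assigned.

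**Figure D3:**
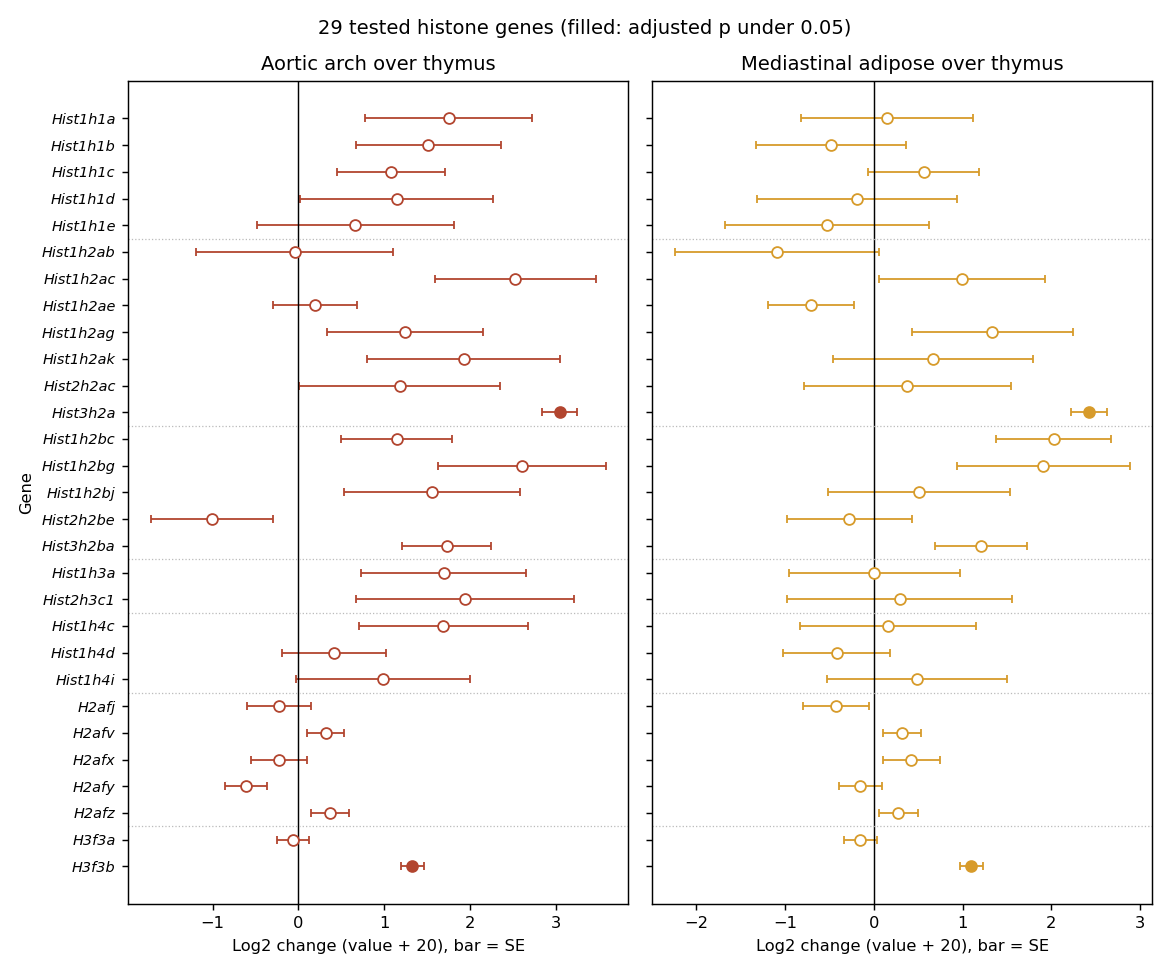
Log2 change against thymus of the 29 tested histone genes, with the SE as a bar and a filled point where the adjusted p was under 0.05. The left panel is arch over thymus and the right panel is adipose tissue over thymus, on separate axes, and dotted lines part the H1, H2A, H2B, H3 and H4 genes, the H2A replacement genes and the H3 replacement genes. In both panels Hist3h2a and H3f3b are the filled points.

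Of the 22 tested replication-type genes, 1 (Hist3h2a) was called higher and 0 lower in arch than in thymus, where 3.99% of all tested genes were called higher and 2.58% lower. The same gene was called higher and 0 were lower in adipose tissue than in thymus, where 2.17% of all tested genes were called higher and 0.67% lower. Estimates leaned upward in arch: 20 of the 22 log2 changes were positive with a median of 1.38, against a median of -0.205 over all tested genes. In adipose tissue 15 of 22 were positive, with a median of 0.336 against -0.0121 over all tested genes. The 4 arch pools lay wholly above the 4 thymus pools for 7 of the 22, and for 601 of the 9106 tested genes. In either direction, 13.2% of all tested genes did not overlap. The 7 were Hist3h2a, Hist3h2ba, Hist1h1a, Hist1h1b, Hist1h2ac, Hist1h2bc and Hist1h2bj. Hist1h2ac, at most 10.7 in a thymus pool, and Hist1h2bj, at most 71.8, passed the filter only through pools outside the thymus. So did Hist1h2ag, Hist1h2bg and Hist1h3a. Hist1h1a, Hist1h1d, Hist1h1e, Hist1h2ab, Hist1h2ak, Hist1h4c, Hist1h4i, Hist2h2ac and Hist2h3c1 reached the filter value in too few thymus pools to pass on thymus alone. Needing pools outside the thymus to pass favours higher values there, so the upward lean of the 22 is not free of the filter. Among the 7, this holds for Hist1h1a, Hist1h2ac and Hist1h2bj. The adipose pools lay wholly above the thymus pools for 2 of the 22, Hist3h2a and Hist1h2bc, and for 499 of the 9106 tested genes. In either direction, 10.5% of all tested genes did not overlap between adipose tissue and thymus. With no filter, the mean was higher in arch than in thymus for 56 of all 60 replication-type genes and for 48.2% of the 13765 genes, and it was higher in adipose tissue than in thymus for 40 of the 60 and for 51.0% of all genes. These counts are descriptions, since members were not independent of one another: they share windows of near-identical sequence and arch pool 4 was the highest of all 12 pools for 15 of the 38 genes below the filter.

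The 38 replication-type genes below the filter were weak everywhere, and no pool of any of them exceeded 747.8 normalised read counts, the value of Hist4h4 in arch pool 4. Their means summed to 2673 in arch, 792.6 in adipose pools and 415.5 in thymus. Reads in all 4 pools of all tissues were found for 4 of them, Hist1h2af, Hist1h2be, Hist1h3c and Hist1h4h. Another 6, Hist1h2ai, Hist1h2bk, Hist1h2bn, Hist1h3f, Hist1h4b and Hist4h4, had reads in every arch and adipose pool but not in every thymus pool. For 12 genes the arch was the tissue with reads in all 4 pools: Hist1h2bf, Hist1h2bl, Hist1h2bm, Hist1h3e, Hist1h3g, Hist1h3i, Hist1h4m, Hist1h4n, Hist2h2bb, Hist2h3b, Hist2h4 and the pseudogene Hist3h2bb-ps. For Hist1h2aa and Hist1h2an it was the thymus. For the remaining 14, no tissue had reads in all 4 pools. Hist4h4 averaged 288.6 in arch, 58.9 in adipose pools and 6.62 in thymus, and Hist1h3i averaged 172.1 in arch, 54.2 in adipose pools and 6.51 in thymus. With no filter beyond 1 read in 4 columns, limma called Hist1h3i and Hist1h2bf higher in arch than in thymus beside Hist3h2a and H3f3b. Of all genes tested in that setting, 4.69% were called. The median share of 50-base windows found in other genes was 64.2% for the 38, 31.1% for the 22 tested replication-type genes and 7% for the 7 tested replacement genes.

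**Figure D4:**
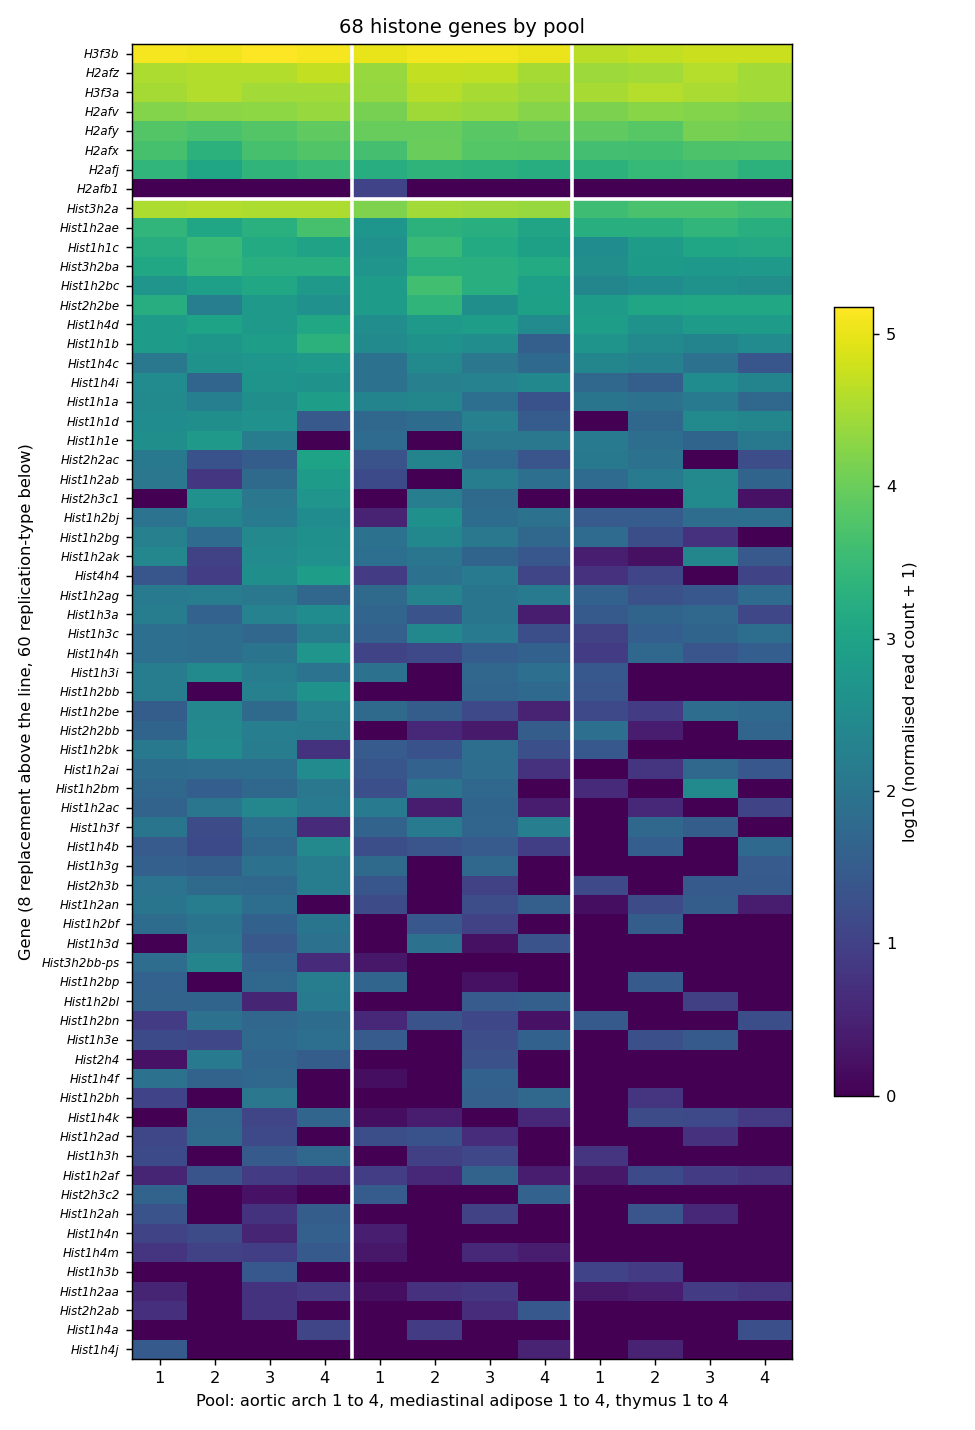
All 68 genes (rows) in the 12 pools (columns, arch, adipose tissue and thymus from left to right), coloured by log10(normalised read count + 1), with the 8 replacement genes above the horizontal line. Replacement genes other than H2afb1 have reads in every pool, while 41 of the 60 replication-type genes lack reads in at least 1 pool.

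Replacement genes were more even between pools, and of the 7 tested, H3f3b alone was called. Its calls were upward against thymus in arch, where 3.99% of all tested genes were, and in adipose tissue, where 2.17% were. Downward calls were 0 of the 7 in both, beside 2.58% and 0.67% of all tested genes. H3f3b and H3f3a encode the same protein, H3.3, which marks active genes and is laid down outside replication. H3f3b, at chr11:116021912-116027962 on the minus strand, had 130231, 117977, 150265 and 128727 normalised read counts in arch pools, 99292, 120796, 122335 and 106820 in adipose pools and 43912, 50266, 58450 and 58026 in thymus pools. The lowest pool outside the thymus was well above the highest thymus pool. The means were 131800 ± 13470 in arch, 112310 ± 11140 in adipose pools and 52664 ± 6942 in thymus (SD, n = 4 pools each). The log2 change was 1.33 ± 0.13 in arch (SE, adjusted p = 2.842e-06 by limma) and 1.10 ± 0.13 in adipose tissue (adjusted p = 3.651e-05) against thymus. Without arch pools 2 and 4 and adipose pool 1 the changes were 1.42 (adjusted p = 0.0001271) and 1.15 (adjusted p = 0.000207). H3f3b had the highest level per kilobase of the tested histone genes in arch (44290) and adipose tissue (37740). In thymus its mean level per kilobase was 17700, against 17330 for H2afz, a gap smaller than the SD over pools of either gene.

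H3f3a, at chr1:180800832-180813943 on the minus strand, had 30687, 38498, 29447 and 28911 normalised read counts in arch pools, 23063, 41705, 32055 and 25556 in adipose pools and 31111, 40525, 33760 and 28440 in thymus pools. The 3 tissues overlapped, and the log2 changes against thymus were -0.07 ± 0.19 in arch and -0.15 ± 0.19 in adipose tissue (SE, adjusted p = 0.866 and 0.8337). The ratio of H3f3b to H3f3a reads within a pool, which does not depend on scaling between pools, was 4.24, 3.06, 5.10 and 4.45 in arch, 4.31, 2.90, 3.82 and 4.18 in adipose tissue and 1.41, 1.24, 1.73 and 2.04 in thymus. No pool outside the thymus had a ratio as low as any thymus pool. Opposite-strand genes overlap H3f3a, and 27.1% of its 50-base windows occur in other genes, against 6.86% for H3f3b.

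The H2A replacement genes did not pass the test in either comparison with thymus. H2afz and H2afv encode the 2 forms of H2A.Z, a variant found at promoters. H2afz averaged 39527 ± 6703 in arch, 38558 ± 13270 in adipose pools and 30777 ± 5975 in thymus (log2 change 0.36 ± 0.22 in arch, adjusted p = 0.3396). H2afv averaged 19739 ± 3333 in arch, 20345 ± 6257 in adipose pools and 15760 ± 1774 in thymus (log2 change 0.32 ± 0.21 in arch, adjusted p = 0.4017). The ratio of H2afz to H2afv reads was 2.00 ± 0.0898 in arch, 1.88 ± 0.125 in adipose pools and 1.96 ± 0.328 in thymus, and overlapped between tissues. H2afx encodes H2A.X, which is phosphorylated at DNA breaks, and it averaged 4389 ± 1613 in arch, 6705.1 ± 2255 in adipose pools and 4860.7 ± 865 in thymus. H2afy encodes macroH2A1, a variant of silent chromatin, and it averaged 6351.5 ± 1295 in arch, 8670.5 ± 1065 in adipose pools and 9954.6 ± 3110 in thymus (log2 change -0.61 ± 0.25 in arch, adjusted p = 0.1427). H2afj, encoding H2A.J, averaged 2363.8 ± 888.9 in arch, 1944.9 ± 345.5 in adipose pools and 2646.9 ± 632.4 in thymus. H2afb1, which encodes a short H2A variant known from testis, had 17 reads, all in adipose pool 1.

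Over the 7 tested replacement genes the median log2 change was -0.0668 in arch and 0.274 in adipose tissue against thymus, beside -0.205 and -0.0121 over all tested genes. The median coefficient of variation over 4 pools was 17.0% in arch, 27.2% in adipose pools and 17.8% in thymus for these 7. It was 62.3%, 77.2% and 52.3% for the 22 tested replication-type genes, and 66.3%, 49.2% and 49.8% for all tested genes, in the same tissues. Levels differ between the classes, so the coefficients are not at matched depth.

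Between arch and adipose tissue, 0 of the 29 tested histone genes were called by limma, by edgeR or by DESeq2. Of all tested genes, limma called 0.0988% higher and 0.0769% lower. In both directions together, edgeR called 0.0879% of all tested genes and DESeq2 1.83%. At an unadjusted p under 0.05 by limma there were 2 histone genes, Hist3h2a and Hist1h1b, both higher in arch. Their pools also did not overlap between arch and adipose tissue, against 5.35% of all tested genes in either direction. Hist3h2a was higher in arch by 0.62 on the log2 scale (adjusted p = 0.3411) and by 0.40 without arch pools 2 and 4 and adipose pool 1. Hist1h1b was higher in arch by 1.99 (adjusted p = 0.4326), and H3f3b by 0.23 (adjusted p = 0.5519). Over the 22 replication-type genes the median log2 change was 0.97, with 19 positive, against -0.166 over all tested genes.

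Neighbouring genes were looked up by position. Within 50 kb of Hist3h2a, 3 other genes were tested. Hist3h2ba is given above. Trim11, a ubiquitin ligase gene 21262 bases away on the same strand, had 9319, 6730, 8248 and 3739 normalised read counts in arch pools, 14830, 9417, 8388 and 13260 in adipose pools and 3217, 2801, 4540 and 2766 in thymus pools. It was called higher in arch (log2 change 1.02 ± 0.30, adjusted p = 0.04689) and in adipose tissue (1.77 ± 0.30, adjusted p = 0.00129) than in thymus, with arch pool 4 inside the thymus range. Rnf187, 15768 bases away on the opposite strand, was not called (log2 change -0.94 ± 0.35 in arch, adjusted p = 0.1185, and 0.30 ± 0.35 in adipose tissue, adjusted p = 0.823). Within 50 kb of H3f3b, Galk1, Unk and Unc13d were tested and none was called, with log2 changes of 0.14, -1.52 and -1.54 in arch and -0.12, 0.07 and -1.35 in adipose tissue against thymus.

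The promoters of Hist3h2a and H3f3b, the 2 genes that were called, are shown because these genes were higher in the same tissues. Each is 250 bases before to 50 after the RefSeq start on GRCm38.p6, read on the gene's strand, with capitals for 4 motifs found by a search of both strands: the CCAAT box (CCAAT), the TATA box (TATAAA), the core of the cyclic AMP response element (TGACG) and the octamer (ATGCAAAT).
Hist3h2a, chr11:58954435-58954734, plus strand: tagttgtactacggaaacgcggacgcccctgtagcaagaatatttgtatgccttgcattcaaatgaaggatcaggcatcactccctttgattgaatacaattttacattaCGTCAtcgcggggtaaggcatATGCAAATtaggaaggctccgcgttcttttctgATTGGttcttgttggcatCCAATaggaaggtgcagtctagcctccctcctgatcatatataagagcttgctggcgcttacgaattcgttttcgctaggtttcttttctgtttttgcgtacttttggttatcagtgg
H3f3b, chr11:116024455-116024754, minus strand: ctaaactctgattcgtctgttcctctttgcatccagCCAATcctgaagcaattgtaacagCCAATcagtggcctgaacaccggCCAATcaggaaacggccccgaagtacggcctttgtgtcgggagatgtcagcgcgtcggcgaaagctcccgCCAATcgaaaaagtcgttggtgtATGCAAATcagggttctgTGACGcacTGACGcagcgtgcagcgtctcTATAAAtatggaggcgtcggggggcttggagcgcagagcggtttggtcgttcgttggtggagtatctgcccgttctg
Both windows hold an octamer, 119 bases before the start in Hist3h2a and 74 in H3f3b, and an octamer was found in 14 of the 61 histone genes with a promoter in the table and in 1.75% of all 27025 promoters. The Hist3h2a window has 2 CCAAT boxes and 1 TGACG match, and the H3f3b window has 4 CCAAT boxes, 2 TGACG matches and 1 TATA box. The search took TATAAA letter for letter, so variants of the TATA box were not counted. The Hist3h2a window holds such a near match, tatataag, left in lower case. A CCAAT box was found in 51 of the 61 and in 37.9% of all promoters, a TATA box in 34 of the 61 and in 14.2%, and TGACG in 25 of the 61 and in 21.0%. The H3f3a window, by the same search, had 1 CCAAT box and none of the other 3 motifs. A match is a description of the letters and was not tested for binding.

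Genes that act on histones were taken as lists beside the members. Of 31 tested genes of histone mRNA 3′ end processing and turnover, 1 was called higher and 0 lower in arch, and 0 in adipose tissue, against thymus, with median log2 changes of -0.0806 and 0.254. The shares over the whole table were 3.99% up and 2.58% down in arch, and 2.17% up and 0.67% down in adipose tissue, with medians of -0.205 and -0.0121, so the share of this list called in arch was near the background. The called gene was Snrpg, a subunit of the Sm ring of small nuclear ribonucleoproteins, at 8635.5 ± 2201 in arch, 6273.9 ± 945.8 in adipose pools and 4766.4 ± 662.3 in thymus (log2 change 0.83 ± 0.24 in arch, adjusted p = 0.04489). Slbp, which encodes the protein that binds the stem-loop, averaged 12468 ± 2859 in arch, 12263 ± 4122 in adipose pools and 6720.1 ± 1262 in thymus, and was not called (log2 change 0.88 ± 0.27, adjusted p = 0.05747, in arch and 0.81 ± 0.27, adjusted p = 0.1395, in adipose tissue). The others with the smallest p were not called either: Ncbp2 (-0.89) and Exosc10 (-2.32) in arch, and Dis3 (2.77), Snrpg (0.39) and Snrpd3 (-0.74) in adipose tissue, as log2 changes.

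Of 36 tested histone chaperones and exchange factors, 2 were called higher in arch and 1 in adipose tissue, with 0 lower in both, near the 3.99% and 2.17% of all tested genes called higher, and the medians were -0.374 and -0.0174, against -0.205 and -0.0121 over all tested genes. Nasp, a chaperone of H1 and of the H3-H4 pair, averaged 7621.2 ± 765.5 in arch, 5987.1 ± 1999 in adipose pools and 2983.5 ± 1151 in thymus (log2 change in arch 1.42 ± 0.32, adjusted p = 0.009855; in adipose tissue 1.00 ± 0.32, adjusted p = 0.1173). Npm1, nucleophosmin, averaged 22197 ± 2322 in arch, 20486 ± 2558 in adipose pools and 14361 ± 2415 in thymus and was called in arch (0.64 ± 0.17, adjusted p = 0.03255). Ncl, nucleolin, averaged 11144 ± 1712 in arch, 13527 ± 3089 in adipose pools and 7167 ± 1719 in thymus and was called in adipose tissue (0.92 ± 0.24, adjusted p = 0.03732). Spty2d1 in arch (log2 change 1.99, adjusted p = 0.1005) and Ruvbl2 in adipose tissue (-1.63, adjusted p = 0.1911) were not called. Among 6 histone genes outside the symbol rule, Cenpa and H1f0 were tested and not called. Cenpa, the centromeric H3 variant, had log2 changes of 1.14 in arch (adjusted p = 0.05878) and 0.79 in adipose tissue (adjusted p = 0.3473), and H1f0 had 0.43 and 1.64.

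Genes of S phase, when replication-type histones are made, were called higher for 2 of 49 tested in arch, near the 3.99% of all tested genes, and for 0 in adipose tissue, where 2.17% of all tested genes were. None was called lower in either. Mcm4, a subunit of the replicative helicase, averaged 6835.4 ± 2295 in arch, 5820.2 ± 1886 in adipose pools and 2954.4 ± 464.6 in thymus (log2 change in arch 1.14 ± 0.33, adjusted p = 0.04559), and Mcm10 averaged 536.8 ± 482.7 in arch, 169.4 ± 166.8 in adipose pools and 7.06 ± 13.1 in thymus (4.14 ± 1.09 in arch, adjusted p = 0.02727). Pcna, the replication clamp, had log2 changes of 0.72 in arch (adjusted p = 0.06561) and 0.63 in adipose tissue (adjusted p = 0.1902), and Orc6 had 1.54 in adipose tissue (adjusted p = 0.1826). The S phase list had medians of 0.0998 in arch and 0.386 in adipose tissue, against -0.205 and -0.0121 over all tested genes. Of 20 tested G2 and M phase genes, 0 were called higher and 1, Aurkb, was called lower in arch (log2 change -3.61 ± 1.07, adjusted p = 0.04948), and 0 were called in adipose tissue, with medians of -0.442 and -0.222 against the same medians over all tested genes. Of all tested genes, 2.58% were called lower in arch. Cdc20 (-2.17), Mki67 (-1.71) and Birc5 (-0.68) in arch, and Cenpf (-1.91), Plk1 (-2.63), Hmgb2 (0.50) and Bub1b (1.54) in adipose tissue, had the next smallest p and were not called. Between arch and adipose tissue, none of these lists had a called gene. The part of cell cycle stage in the histone values was not tested.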

How the data were processed

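RNA of sorted DP cells was measured in 26 libraries, which the deposited table combines into 12 columns, 4 pools per tissue. Adipose pool 2 holds 1 library, and the other pools hold 2 or 3. Per the submitters' processing notes, FastQC 0.11.5, STAR 2.6.0c and the build GRCm38 were used. Which tool counted reads, and against which annotation, is not given in the sources used here. Values in the deposited table are a normalised signal per gene: in each column every value above 0 is a whole multiple, within 0.01, of the smallest (100% of 120369 values), so whole reads were recovered. The value that the authors deposited is called a normalised read count.

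limma 3.58.1 in R 4.3.3, with an intensity trend, tested log2(value + 20) over all 12 columns in 1 fit with tissue as the term. The pseudocount understates changes of weak genes. A gene was tested where 4 or more columns held 100 or more, and p-values were adjusted by the Benjamini-Hochberg method over the 9106 such genes. Pools were the replicates, and p-values measure the spread between pools. The fit was tested on simulated counts with the same setting of spread for every gene, so that test does not cover weak, more uneven genes. edgeR 4.0.16 and DESeq2 1.42.0 on recovered reads, other pseudocounts, filters and scalings, left-out pools and a replicate block were alternatives. Levels per kilobase use the exon length of GENCODE vM21, and matches of 50-base windows use its transcripts. Promoters come from RefSeq (GRCm38.p6), matched by symbol or synonym for 61 of 68 genes.

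The members and lists were chosen with earlier results of these data known. Every tested member is named; members below the filter are named where a tissue had reads in all 4 pools; of each list, the 4 genes with the smallest p against thymus in each comparison are named. H2afb1 and Trim17, Trim11 and other neighbours within 50 kb were named after their values were seen. In the list of B cell markers, 1 gene is not reported here and was left out of the sum.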

Additional observations from a re-analysis of the deposited data

Results flagged for a closer look

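Among 93 sets of 4 pools (29 genes and 2 class sums in 3 tissues), 6 held a pool that stood apart from the other 3 by Dixon's criterion at the 95% level. For independent, normally spread values chance alone flags about 1 in 20 sets. The rate for these values is not known, since they are unlogged counts, some at 0, from genes that share reads and pools. All 6 were high and all were replication-type genes. In arch pool 4, Hist1h1b was at 2164 normalised read counts (others 557.3 to 808.4), Hist1h2ab at 733.9 (5.71 to 114.0) and Hist2h2ac at 999.7 (19.0 to 123.0). In thymus pool 3, Hist1h2ae was at 2600 (others 1802 to 1879), Hist1h2ak at 237.4 (0.748 to 27.2) and Hist2h3c1 at 303.0 (0 to 0.825). Arch pool 4 was also the pool with 6008 CPM of fibroblast markers, and the part of that in these values was not tested.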

How the results depend on the processing

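Hist3h2a and H3f3b were called higher than in thymus in all 8 fits that left out 1 pool and in all 11 other alternatives, for arch and for adipose tissue alike. The log2 change of Hist3h2a was 2.89 to 3.09 in arch and 2.38 to 2.63 in adipose tissue over those 11, and that of H3f3b 1.17 to 1.47 and 1.05 to 1.15. In arch against thymus, 2 of 29 histone genes were called as reported, where 6.57% of all tested genes were called. With no filter beyond 1 read in 4 columns it was 4 of 64 (Hist1h2bf and Hist1h3i added), against 4.69% of all. With a filter of 20 in 4 columns it was 3 of 51 (Hist1h3i added), against 5.52%. With DESeq2 it was 4 of 29 (Hist1h2ac and Hist3h2ba added), against 11.1%. The number of histone genes called was 2 in every fit that left out 1 pool, as it was in adipose tissue, and 0 in every such fit of arch against adipose tissue. The cause of the added calls was not tested, apart from the looser filters' own wider sets of 64 and 51 histone genes.

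The replicate block by pool number gave 3 calls in arch (Hist3h2ba added, adjusted p = 0.04432) and 2 in adipose tissue. With that block, 6.68% of all tested genes were called in arch and 2.67% in adipose tissue, against thymus. Deviations of pools with the same number correlated at -0.0316 to 0.0756, so the numbers were not taken as pairs. For adipose pools 1, 2 and 4, however, the thymus pool that correlated most had the same number. Arch pool 2 likewise correlated most with pool 2 of thymus and of adipose tissue, while the other arch pools did not match by number.

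Over all genes, the calls in arch against thymus were 598 as reported, 365 with edgeR and 1007 with DESeq2. They were 308 without arch pools 2 and 4 and thymus pool 3, and 345 without arch pools 2 and 4 and adipose pool 1. CPM scaling moved the median log2 change of all tested genes in arch against thymus from -0.205 to -0.348, and the median of the 7 replacement genes in arch against adipose tissue from 0.088 to -0.0153. With 200 cells a library, zeros in weak replication-type genes limit what the low values can show.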
